A study of Homo sapiens with 21 samples.

Results

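The genes described here are 10 contractile and matricellular genes known as targets of serum response factor (SRF) or of the coactivators YAP and TAZ: *ACTA2*, *TAGLN*, *CNN1*, *CNN2*, *MYL9*, *TPM1*, *TPM2*, *CTGF*, *CYR61* and *ANKRD1*. They were chosen by symbol, with earlier results of these data known. All 10 were found among the 23368 features of the mRNA count table. The samples are HK-2, an established epithelial cell line of the human kidney proximal tubule, grown in keratinocyte serum-free medium with epidermal growth factor and bovine pituitary extract. Polyadenylated RNA was sequenced after 48 h in 5 µg/mL cyclosporine A, an inhibitor of the phosphatase calcineurin (4 libraries), or in 0.1% ethanol as vehicle (4 libraries). Small RNA was sequenced from the same 2 treatments with 4 libraries each. RNA bound to AGO2, an Argonaute protein that carries miRNAs, was recovered by PAR-CLIP after 24 h, with 2 libraries per treatment. The clusters are given as 1 list per treatment, not split by library. All samples are 1 cell line, and the labels do not state whether libraries of a group are independent cultures. The p-values therefore describe variation among libraries, part or all of which may be technical.

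As background, SRF binds a promoter element called the CArG box. Its coactivators MRTF-A (*MKL1*) and MRTF-B (*MKL2*) are held back by monomeric actin and are freed as actin polymerises. YAP and TAZ (*YAP1* and *WWTR1*) act through TEAD transcription factors, and they are restrained by the Hippo kinases and released by cell spreading and tension. In the kidney *ACTA2* and *TAGLN* are used as markers of myofibroblasts, and *CTGF* and *CYR61*, now named *CCN2* and *CCN1*, encode secreted proteins of the matrix.

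Promoters are given first because the genes are grouped by the factors that bind them. The RefSeq promoter table (GRCh38.p14) held windows for 7 of the 10 genes, with 2 start sites each for *ACTA2* and *TPM2*; *TAGLN*, *MYL9* and *CYR61* had no entry. The 250 bases before each start were searched on both strands for the CArG box, for GGAATG (TEAD) and for TGANTCA (AP-1). The windows of *CTGF* (chr6:131951373-131951622, minus strand) and *ANKRD1* (chr10:90921088-90921337, minus strand) are printed because these YAP targets changed in opposite directions. The window of the second *ACTA2* start (chr10:88952774-88953023, minus strand) is printed for its CArG-like elements, and that of *CNN2* (chr19:1026358-1026607, plus strand) for its exact CArG box. Capitals mark the motif matches.
CTGF: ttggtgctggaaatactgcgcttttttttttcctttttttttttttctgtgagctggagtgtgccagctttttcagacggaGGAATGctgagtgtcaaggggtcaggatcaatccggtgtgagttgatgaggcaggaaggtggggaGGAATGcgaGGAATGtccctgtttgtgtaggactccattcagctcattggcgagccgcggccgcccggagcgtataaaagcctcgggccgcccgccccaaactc
ANKRD1: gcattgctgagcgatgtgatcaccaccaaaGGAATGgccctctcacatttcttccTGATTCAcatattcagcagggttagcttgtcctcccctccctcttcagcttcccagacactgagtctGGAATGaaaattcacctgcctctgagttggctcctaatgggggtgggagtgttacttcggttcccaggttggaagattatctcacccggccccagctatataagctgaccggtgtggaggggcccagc
ACTA2: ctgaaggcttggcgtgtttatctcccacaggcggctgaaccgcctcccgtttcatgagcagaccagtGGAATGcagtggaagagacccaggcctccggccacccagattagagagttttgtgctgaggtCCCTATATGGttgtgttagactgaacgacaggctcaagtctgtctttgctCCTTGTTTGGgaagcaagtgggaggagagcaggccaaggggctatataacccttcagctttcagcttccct
CNN2: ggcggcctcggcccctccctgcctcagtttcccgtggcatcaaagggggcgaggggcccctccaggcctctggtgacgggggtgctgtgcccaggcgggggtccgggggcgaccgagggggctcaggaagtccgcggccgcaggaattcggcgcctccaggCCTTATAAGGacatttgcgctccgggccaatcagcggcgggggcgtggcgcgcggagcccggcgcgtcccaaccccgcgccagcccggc

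*CTGF* had 3 TEAD motifs, 169, 104 and 95 bases before its start, and 0.0826% of 35116 promoter windows of this length had 3 or more. *ANKRD1* had 2 TEAD motifs, at 220 and 128 bases (0.940% of windows had 2 or more), and 1 AP-1 motif at 195 bases (6.57% had at least 1). The second *ACTA2* start had 1 TEAD motif at 183 bases, as 11.9% of windows had at least 1. An exact CArG box was found only in *CNN2*, at 89 bases (1.16% of windows). A search with 1 mismatch in the inner 6 bases of the box, added after the sequences were seen, gave 2 matches at the second *ACTA2* start, at 121 and 71 bases (0.493% of windows had 2 or more). The windows of *CNN1*, *TPM1*, *TPM2* and the first *ACTA2* start held none of these letters. A match is a description of the sequence and does not show binding.

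**Figure D1:**
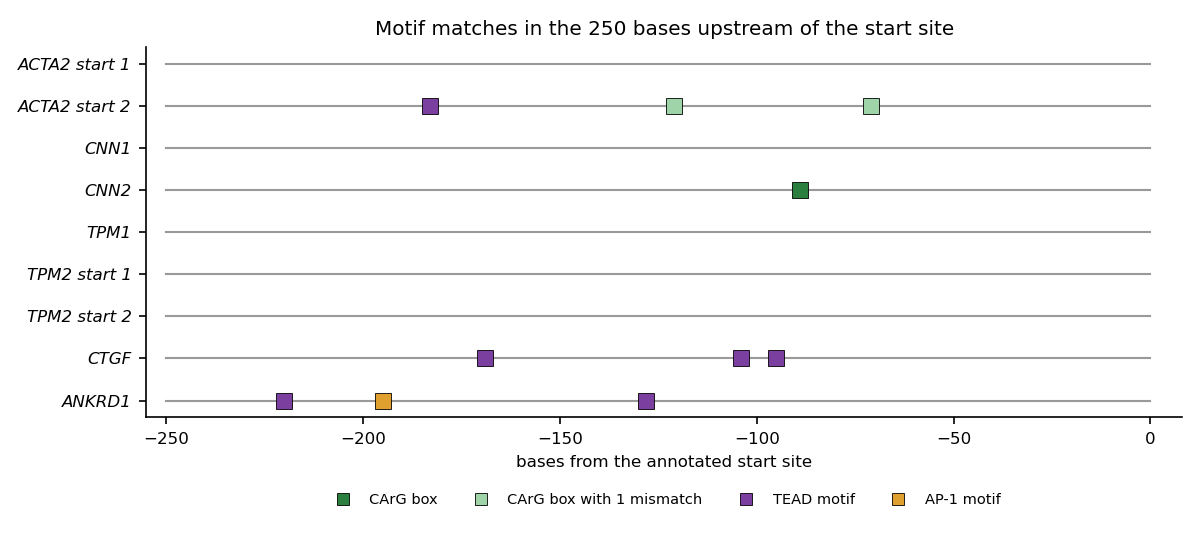
Motif matches (marks, by motif) in the 250 bases before the annotated start sites; the x axis is the distance from the start in bases. *CTGF* has 3 TEAD motifs and *ANKRD1* has 2, and *CNN2* has the exact CArG box.

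After 48 h of cyclosporine A the 10 genes did not change as a unit. *TPM1* and *CTGF* fell by 2.16-fold and 2.34-fold, *MYL9* fell slightly, and *ANKRD1* rose 2.53-fold. *CYR61*, *CNN2* and *TAGLN* were not called, and *ACTA2*, *CNN1* and *TPM2* had too few counts for the main test. A gene was called at a Benjamini-Hochberg adjusted p under 0.05 in edgeR's quasi-likelihood test over all genes. Of the 7 genes tested, 1 was higher and 3 were lower (57.1% called). Over all 12855 genes tested 66.9% were called, 33.3% higher and 33.5% lower, so the share among the 7 was near the background. Their median log2 fold change was -0.07, against -0.0022 over all genes tested. On the log2 scale 3 of the 7 changed by more than 1, against 1563 of the 12855 genes tested, which is a smaller share. The genes were chosen with earlier results of these data known, so no conclusion is drawn from that contrast. The groups of libraries did not overlap for 4 of the 7 genes, and over all genes tested they did not overlap for 57.9% (29.0% with cyclosporine A above and 28.9% with vehicle above).

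Levels are given in CPM, the count of a gene scaled to its library's total after TMM normalization, as mean ± SD over 4 libraries. Library totals were 3965431 to 7041604 counts. Fold changes are on the log2 scale with their standard error, positive where cyclosporine A was higher. Libraries are listed in the order of replicates 1 to 4.

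**Figure D2:**
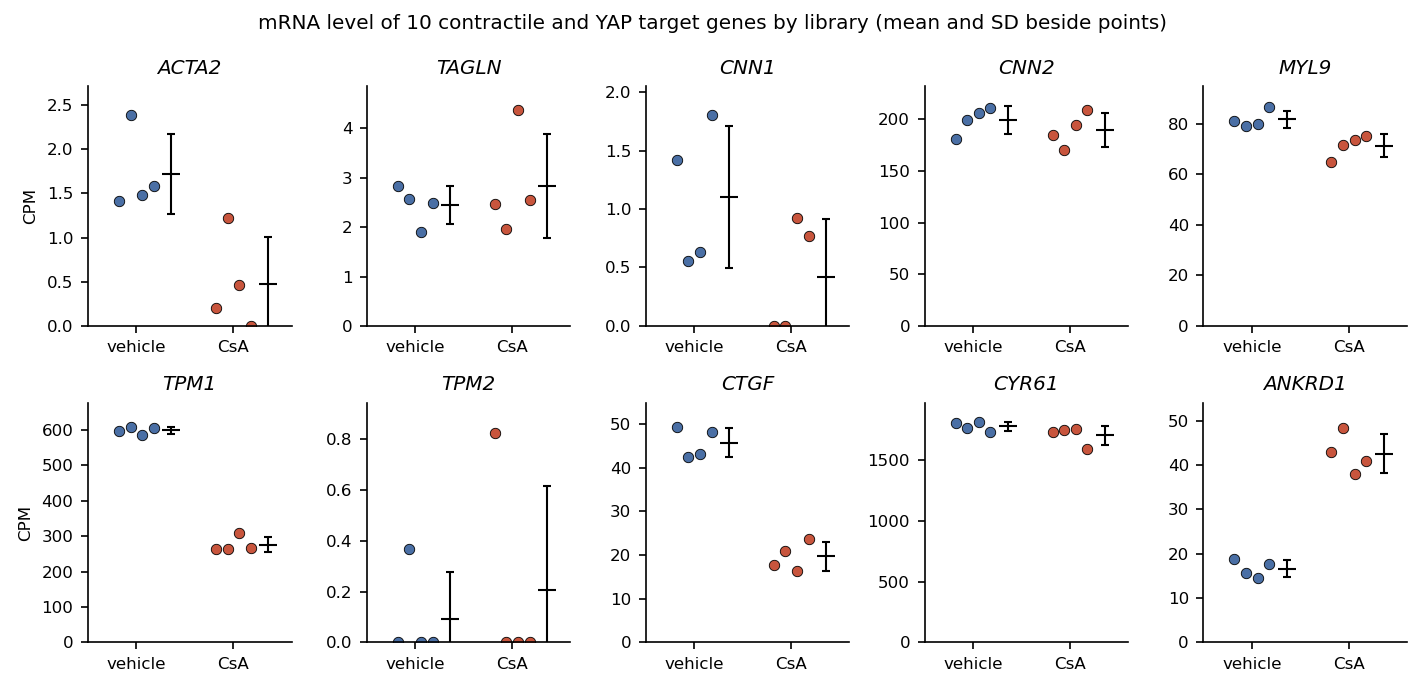
Level in CPM (y axis, from 0, with its own scale for each gene) of the 10 genes in the 4 vehicle and 4 cyclosporine A (CsA) libraries, as points, with mean and SD. The groups do not overlap for *TPM1*, *CTGF*, *MYL9*, *ANKRD1* and the low-count *ACTA2*.

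*TPM1* encodes a tropomyosin, which lies along actin filaments and sets the access of myosin to them. Vehicle libraries had 597, 608, 585 and 607 CPM and cyclosporine A libraries had 265, 265, 311 and 266 CPM. Every cyclosporine A library was far below every vehicle library, and replicate 3 was the highest of its group. *TPM1* was 2.16-fold lower (-1.11 ± 0.06, edgeR adjusted p = 3.22e-24), with -1.17 when that replicate was left out. In the authors' deposited table the log2 fold change was -1.10. Of all genes tested, 1229 changed by more.

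*TPM2*, another tropomyosin gene, had 2 counts in vehicle replicate 2 and 4 counts in cyclosporine A replicate 1, and 0 in the other 6 libraries. A count of 0 allows up to 3 counts, or 0.767 CPM in the shallowest library, so a difference was not detectable at this depth. Among the tropomyosins of nonmuscle cells, *TPM3* rose (from 102 ± 6.61 to 122 ± 6.68 CPM; 0.27 ± 0.07, edgeR adjusted p = 0.000345). *TPM4* went from 183 ± 11.1 to 205 ± 11.4 CPM and was called (0.16 ± 0.06, edgeR adjusted p = 0.0166), but not with upper quartile scaling (0.08), with total counts (0.11) or without cyclosporine A replicate 3 (0.14). *TPM1* took 67.8% ± 1.18 with vehicle and 45.8% ± 1.55 with cyclosporine A of the counts on the 4 tropomyosin genes, and the groups did not overlap (66.2 to 68.9 against 44.8 to 48.1). This share and those of the other families were chosen after the values were seen and carry no test. The genes of these families share sequence, so how the counting divided reads between them is uncertain.

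*MYL9* encodes a regulatory light chain of myosin, whose phosphorylation starts contraction in smooth muscle and nonmuscle cells. Vehicle libraries had 81.2, 79.0, 79.8 and 86.7 CPM and cyclosporine A libraries had 64.8, 71.3, 73.4 and 75.2 CPM. All vehicle libraries were above all cyclosporine A libraries, by a narrow gap. The fall was small (-0.20 ± 0.07, edgeR adjusted p = 0.0111), and without cyclosporine A replicate 1 it was -0.15 and not called (edgeR adjusted p = 0.0854). The authors' deposited table gives -0.19 with an adjusted p of 0.0449.

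The closely similar light chain gene *MYL12A* rose (from 75.1 ± 3.50 to 113 ± 5.00 CPM; 0.60 ± 0.07, edgeR adjusted p = 1.39e-11), and *MYL12B* was not called (0.03 ± 0.07, edgeR adjusted p = 0.739). *MYL9* made up 35.4% ± 1.22 with vehicle and 27.4% ± 2.08 with cyclosporine A of the counts on these 3 genes, again without overlap (34.0 to 37.0 against 24.8 to 29.1). The essential light chain gene *MYL6* fell (-0.42 ± 0.06, edgeR adjusted p = 6.03e-08), as did *MYLK*, the gene of the kinase that phosphorylates the regulatory light chains (-0.33 ± 0.06, edgeR adjusted p = 1.55e-06). *MYL6B* was not called (0.14 ± 0.08, edgeR adjusted p = 0.154).

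Calponins bind actin and restrain myosin. *CNN2*, the calponin of many nonmuscle cells, had 181, 199, 207 and 211 CPM in the vehicle libraries and 185, 170.5, 194 and 209 CPM in the treated ones. These ranges overlapped. The difference was not called (-0.07 ± 0.06, edgeR adjusted p = 0.340; 95% interval -0.19 to 0.06), although with upper quartile scaling it was -0.15 and called (edgeR adjusted p = 0.0356). *CNN1*, the smooth muscle calponin, had 10, 3, 3 and 8 counts with vehicle and 0, 0, 4 and 3 counts with cyclosporine A. The groups overlapped, with 0 in 2 cyclosporine A libraries. Without the low-count filter *CNN1* was lower (-1.38, edgeR adjusted p = 0.0441). It was not called in DESeq2 (-1.41, adjusted p = 0.148) or in the authors' deposited table (-0.80, adjusted p = 0.134). *CNN3* fell (-0.44 ± 0.08, edgeR adjusted p = 1.37e-06), and *CNN2* made up 72.2% ± 0.468 with vehicle and 77.1% ± 2.58 with cyclosporine A of calponin counts (71.8 to 72.9 against 73.6 to 79.0).

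*TAGLN* encodes transgelin, an actin-binding protein of smooth muscle. Vehicle libraries had 2.84, 2.58, 1.91 and 2.48 CPM and cyclosporine A libraries had 2.47, 1.95, 4.37 and 2.56 CPM, from 9 to 20 counts with vehicle and 8 to 19 counts with cyclosporine A. The groups overlapped, and cyclosporine A replicate 3 was the highest of all 8. The difference was not called (0.19 ± 0.29, edgeR adjusted p = 0.572; 95% interval -0.39 to 0.77), and without that replicate it was -0.09. *TAGLN* overlaps *PCSK7* and *LOC100652768* in RefSeq, and whether the counting used the strand was not stated, so their reads may not be separable. *PCSK7* was not called (0.00 ± 0.09, edgeR adjusted p = 0.989), and *LOC100652768* fell from 8.53 ± 1.55 to 4.62 ± 0.724 CPM (-0.90 ± 0.20, edgeR adjusted p = 6.76e-05). The paralog *TAGLN2* fell (-0.40 ± 0.07, edgeR adjusted p = 3.59e-07), and *TAGLN3* was not called (-0.36 ± 0.26, edgeR adjusted p = 0.212).

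*ACTA2* encodes smooth muscle actin. It had 10, 13, 7 and 7 counts in the vehicle libraries and 1, 5, 2 and 0 counts in the cyclosporine A libraries, 37 against 8 in all. Every vehicle library was above every cyclosporine A library in CPM (1.42 to 2.39 against 0 to 1.22). *ACTA2* did not pass the low-count filter. Without that filter it was lower (-1.82, edgeR adjusted p = 0.00143), DESeq2 gave -1.87 (adjusted p = 0.0182), and the authors' deposited table gives -1.21 (adjusted p = 0.0127).

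*FAS*, a death receptor gene that overlaps *ACTA2* in RefSeq, fell from 19.6 ± 1.89 to 9.77 ± 1.46 CPM (-1.01 ± 0.14, edgeR adjusted p = 3.90e-09), and its part in the *ACTA2* counts was not tested. Of the cytoplasmic actins, *ACTG1* rose (from 1514 ± 128 to 1962 ± 132 CPM; 0.37 ± 0.06, edgeR adjusted p = 3.18e-07). *ACTB* was not called (0.12 ± 0.06, edgeR adjusted p = 0.0773), but it was called higher without the low-count filter (0.13), without vehicle replicate 4 (0.17) and with a replicate block (0.12).

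The YAP targets gave 1 fall, 1 rise and 1 gene not called. *CTGF* encodes a secreted protein that promotes matrix production. Vehicle libraries had 49.2, 42.5, 43.2 and 48.1 CPM and cyclosporine A libraries had 17.7, 21.0, 16.3 and 23.8 CPM. The groups were well apart. *CTGF* was 2.34-fold lower (-1.23 ± 0.10, edgeR adjusted p = 5.39e-16), with -1.32 to -1.15 when 1 library was left out. The authors' deposited table gives -1.19. Of all genes tested, 959 changed by more.

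*ANKRD1* encodes an ankyrin-repeat protein first known from heart and stretched muscle. Vehicle libraries had 18.7, 15.6, 14.6 and 17.6 CPM and cyclosporine A libraries had 43.0, 48.4, 38.0 and 40.9 CPM. Every cyclosporine A library was above every vehicle library. *ANKRD1* was higher by 1.34 ± 0.10, edgeR adjusted p = 3.08e-17, with 1.28 to 1.42 when 1 library was left out. The authors' deposited table gives 1.33.

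*CYR61* encodes a secreted protein closely related to that of *CTGF*. Vehicle libraries had 1802, 1766, 1809.8 and 1726 CPM and cyclosporine A libraries had 1728, 1745, 1755 and 1586 CPM. The groups overlapped, with cyclosporine A replicate 4 the lowest of the 8. The difference was not called (-0.06 ± 0.06, edgeR adjusted p = 0.347; 95% interval -0.17 to 0.05), and with upper quartile scaling it was -0.14 and called (edgeR adjusted p = 0.0260).

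Ratios within a library do not depend on scaling between libraries. Counts of *ANKRD1* per count of *CTGF* were 0.363 ± 0.0178 with vehicle and 2.19 ± 0.321 with cyclosporine A (0.338 to 0.380 against 1.72 to 2.43). Counts of *CTGF* per count of *CYR61* were 0.0258 ± 0.00210 with vehicle and 0.0116 ± 0.00251 with cyclosporine A (0.0239 to 0.0279 against 0.00931 to 0.0150). Neither ratio overlapped between the groups. They were chosen after the values were seen and carry no test. In the rest of the CCN family, *NOV* (*CCN3*) rose (from 28.2 ± 1.94 to 50.8 ± 4.68 CPM; 0.86 ± 0.09, edgeR adjusted p = 1.66e-12) and *WISP2* (*CCN5*) fell (from 3.06 ± 0.436 to 0.567 ± 0.250 CPM; -2.36 ± 0.39, edgeR adjusted p = 4.70e-07). *WISP1* had no count, and *WISP3* had 2 counts in all.

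**Figure D3:**
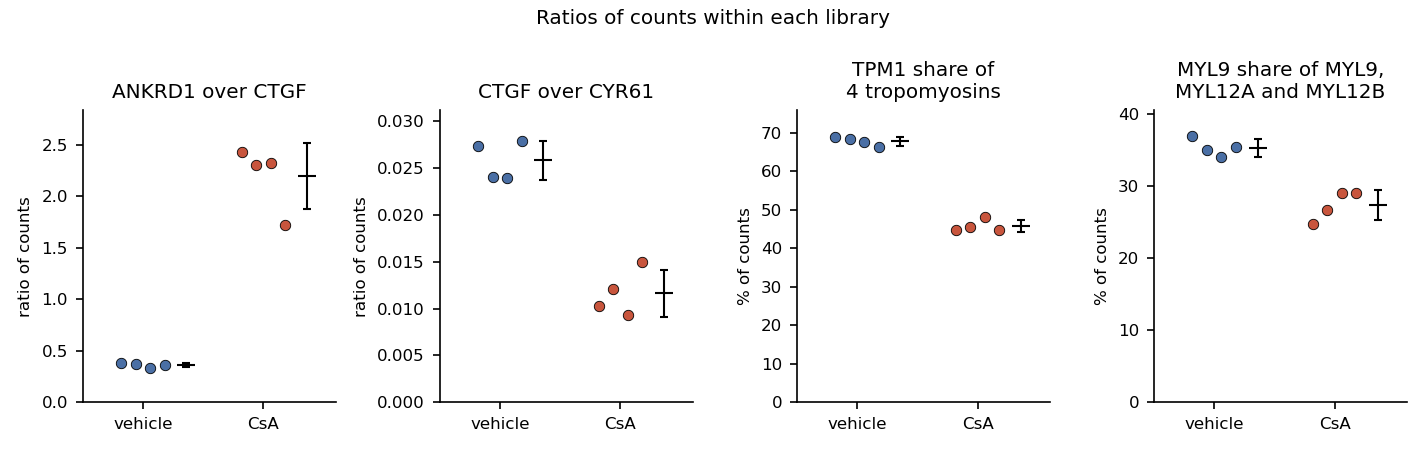
Ratios of counts within each library (points, with mean and SD), with vehicle and cyclosporine A (CsA) libraries side by side; each y axis starts at 0. The groups do not overlap, and the ratio of *ANKRD1* to *CTGF* goes from 0.363 to 2.19.

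Other cytoskeletal targets of SRF moved in both directions. Of 30 listed genes 27 were tested, and 13 rose, 7 fell and 7 were not called (median 0.16). The share called was 74.1%, against 66.9% of all genes tested (33.3% higher and 33.5% lower). *FLNA*, the gene of an actin-crosslinking filamin, rose from 3181 ± 36.7 to 5646 ± 235 CPM (0.83 ± 0.06, edgeR adjusted p = 8.93e-19), and *MYH9*, a nonmuscle myosin heavy chain gene, rose from 2002 ± 91.0 to 3151 ± 132 CPM (0.65 ± 0.06, edgeR adjusted p = 6.22e-15). *VCL*, the gene of vinculin, which links actin to adhesions, fell from 1664 ± 85.3 to 969 ± 36.2 CPM (-0.78 ± 0.06, edgeR adjusted p = 3.93e-18). *FILIP1L* fell from 10.1 ± 0.452 to 2.65 ± 0.947 CPM (-1.95 ± 0.22, edgeR adjusted p = 1.37e-11).

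Among regulators of SRF, 13 of 22 tested genes rose, 6 fell and 3 were not called (median 0.22). The share called was 86.4%, against 66.9% of all genes tested (33.3% higher and 33.5% lower). *SRF* itself rose from 53.3 ± 2.21 to 78.4 ± 5.65 CPM (0.56 ± 0.07, edgeR adjusted p = 2.18e-09). Its coactivator gene *MKL1* was slightly lower (-0.21 ± 0.08, edgeR adjusted p = 0.0269), a call lost in DESeq2 (-0.19), without vehicle replicate 2 (-0.15) and without cyclosporine A replicate 1 (-0.20), 2 (-0.19) or 4 (-0.18). *MKL2* was not called (0.02 ± 0.11, edgeR adjusted p = 0.892), and *MYOCD*, the muscle coactivator, had no count in any library. *ELK1*, which encodes a partner of SRF outside the actin pathway, rose from 37.0 ± 3.97 to 76.5 ± 9.10 CPM (1.05 ± 0.08, edgeR adjusted p = 1.24e-16).

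Among the small GTPases upstream of actin and their regulators, *ARHGEF2*, an activator of RhoA, rose from 114 ± 6.08 to 301 ± 6.64 CPM (1.40 ± 0.06, edgeR adjusted p = 2.46e-28). *RHOA* was higher (0.21 ± 0.06, edgeR adjusted p = 0.00364), but not called with upper quartile scaling (0.13). *RHOB* fell from 69.8 ± 6.59 to 48.2 ± 6.73 CPM (-0.53 ± 0.08, edgeR adjusted p = 1.80e-07). *ARHGAP29*, which encodes a GTPase-activating protein, fell (-0.67 ± 0.07, edgeR adjusted p = 3.66e-13), as did *DIAPH1*, the gene of an actin-nucleating formin (-0.39 ± 0.06, edgeR adjusted p = 8.14e-08).

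Of 19 further YAP target genes 18 were tested, and 6 rose, 9 fell and 3 were not called (median -0.26). The share called was 83.3%, against 66.9% of all genes tested (33.3% higher and 33.5% lower). *GADD45A*, a growth arrest gene, rose from 39.1 ± 4.67 to 421 ± 89.1 CPM (3.43 ± 0.10, edgeR adjusted p = 2.99e-37), and the kinase gene *NUAK2* rose from 56.9 ± 4.46 to 133 ± 19.5 CPM (1.22 ± 0.08, edgeR adjusted p = 1.71e-20). *IGFBP3*, whose product binds insulin-like growth factors, fell from 236 ± 9.68 to 23.8 ± 1.20 CPM (-3.31 ± 0.08, edgeR adjusted p = 1.61e-41), and *TGFB2*, a growth factor gene, fell from 540.2 ± 40.5 to 157 ± 11.0 CPM (-1.78 ± 0.06, edgeR adjusted p = 2.31e-32). *LATS2*, both a YAP target and a Hippo kinase gene, rose from 49.5 ± 2.28 to 93.9 ± 7.74 CPM (0.92 ± 0.07, edgeR adjusted p = 1.77e-16). *AMOTL2* was not called (0.01 ± 0.06, edgeR adjusted p = 0.863).

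Of the Hippo and YAP machinery 20 genes were tested, and 11 rose, 2 fell and 7 were not called (median 0.27). The share called was 65.0%, near the 66.9% of all genes tested (33.3% higher and 33.5% lower). With upper quartile scaling or total counts 4 fell. *YAP1* had 79.9 ± 2.97 CPM in the vehicle libraries and 85.7 ± 3.40 CPM in the others and was not called (0.10 ± 0.07, edgeR adjusted p = 0.170). *WWTR1* was not called either (-0.11 ± 0.06, edgeR adjusted p = 0.120), but it was called lower with upper quartile scaling (-0.19) and total counts (-0.16). *TEAD1* was just above the threshold (-0.15 ± 0.07, edgeR adjusted p = 0.0521) and was called lower with upper quartile scaling (-0.22), total counts (-0.20), and without vehicle replicate 3 (-0.18), vehicle replicate 4 (-0.17) or cyclosporine A replicate 3 (-0.18).

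The called falls were *TEAD2*, from 55.1 ± 1.87 to 21.3 ± 2.74 CPM (-1.37 ± 0.09, edgeR adjusted p = 2.63e-19), and *AMOT*, the gene of a scaffold that binds YAP, from 26.1 ± 2.27 to 10.4 ± 0.838 CPM (-1.32 ± 0.12, edgeR adjusted p = 4.99e-14). *FRMD6*, an upstream activator of the Hippo kinases, rose from between 24.1 and 33.8 CPM to between 57.1 and 83.3 CPM (1.22 ± 0.10, edgeR adjusted p = 4.83e-17). The kinase gene *MAP4K4* rose from 184 ± 6.22 to 266 ± 8.45 CPM (0.53 ± 0.06, edgeR adjusted p = 7.36e-12).

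**Figure D4:**
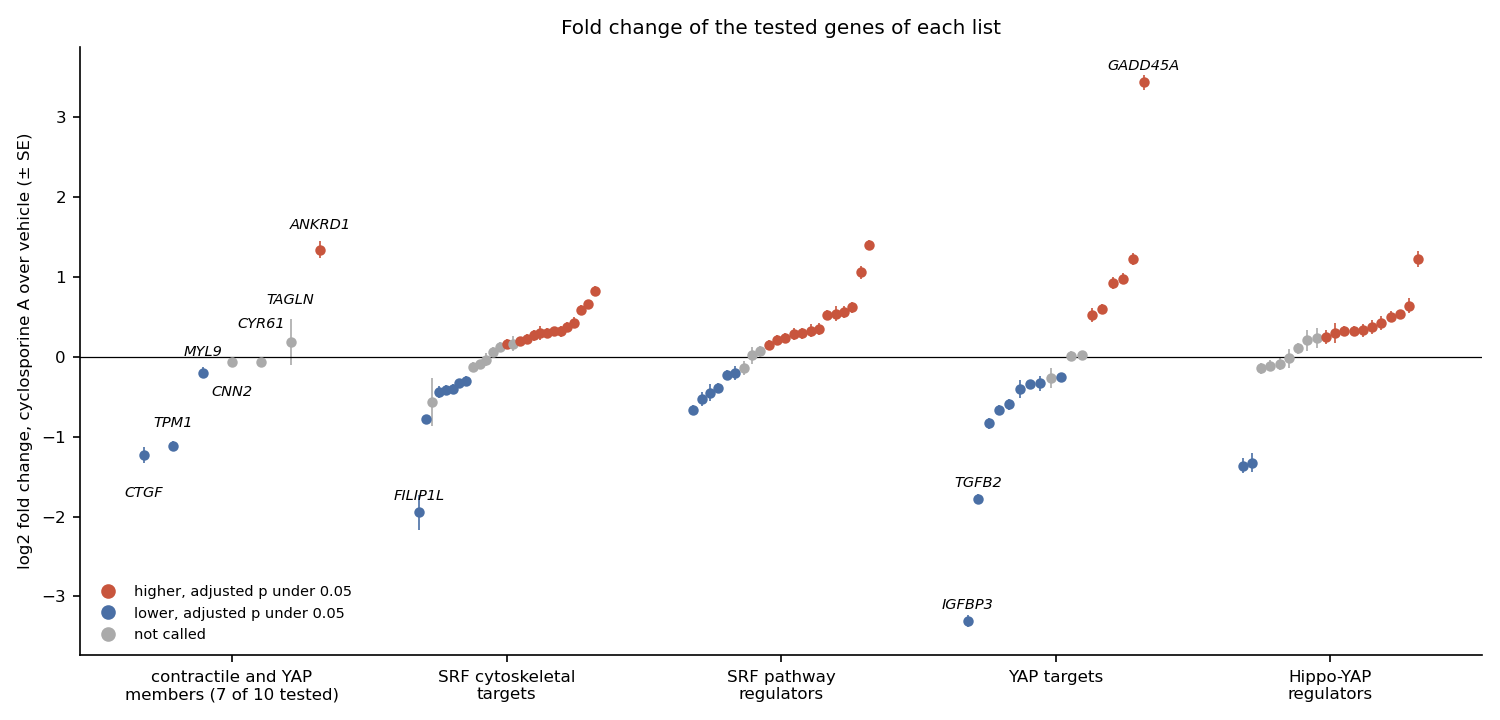
Log2 fold change of the tested genes among the 10 and in the 4 lists, positive where cyclosporine A was higher, with SE and coloured by call. The 10 genes reach from *CTGF* at -1.23 to *ANKRD1* at 1.34.

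Markers of other cell types were read beside these genes. Each marker list held few tested genes, and the share called over all genes tested was 66.9% (33.3% higher and 33.5% lower). Of 10 smooth muscle markers 4 were tested, of which *RGS5* rose (0.68 ± 0.21, edgeR adjusted p = 0.00328) and none was called lower. *MYH11* (-0.64 ± 0.34, edgeR adjusted p = 0.0944), *LMOD1* (-0.56 ± 0.30, edgeR adjusted p = 0.0906) and *SMTN* (-0.10 ± 0.06, edgeR adjusted p = 0.155) were not called, and the median was -0.33. *MYOCD* and *KCNMB1* had no count, and the summed level was 212 to 233 CPM with vehicle and 193 to 222 CPM with cyclosporine A, mostly from *SMTN* (213 ± 9.30 CPM in the vehicle libraries and 199 ± 12.7 CPM in the others). Of 9 fibroblast markers 3 were tested and all 3 fell: *LUM* (-2.06 ± 0.07), *COL1A1* (-1.52 ± 0.17) and *DCN* (-0.98 ± 0.08). Their list's summed level was 360.1 to 403 CPM with vehicle and 108 to 127 CPM with cyclosporine A, with *COL1A2*, *PDGFRA* and *POSTN* at 0 in all libraries. The part of these genes' fall in that of *TPM1*, *CTGF* and *ACTA2* was not tested. Of 9 endothelial and immune markers none was tested, 6 had no count, and the sum was at most 0.460 CPM. Of 14 kidney epithelium markers 9 were tested: *PAX8*, *KRT8*, *KRT18* and *KRT19* rose, and *CDH16*, *LHX1*, *GGT1* and *EPCAM* were among the 5 that fell. *PAX8* had a mean of 833 CPM in the vehicle libraries and 954 CPM in the treated ones, while the proximal tubule genes *LRP2*, *CUBN* and *AQP1* had means of at most 0.798 CPM. Their low level was shared by *ANPEP* (means of at most 0.865 CPM) but not by *GGT1*. The mean of *GGT1* was 152 CPM in the vehicle libraries and 99.1 CPM in the treated ones. In bulk RNA, fewer cells of a type and less RNA per cell cannot be told apart.

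AGO2 clusters are a separate readout of the same transcripts, taken at 24 h. The vehicle list held 13 clusters annotated to 5 of the 10 genes, of 56985, and the cyclosporine A list held 4 annotated to 2 genes, of 36812. All 4 overlapped a vehicle cluster on the same strand by at least 1 base. *TAGLN*, *CNN1*, *MYL9*, *CTGF* and *ANKRD1* had none in either list. The lists are not split by library and differ in length, so these counts show no change. Positions are in build hg19, scores are the authors', and a percentile ranks a cluster within its own list.

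*TPM1* had 2 clusters that recurred in both lists, and their sequences are printed with the 3' UTR clusters of *CNN2* and *CYR61*, as the clusters found under both treatments or in a 3' UTR on the gene's own strand. The first *TPM1* cluster (chr15:63349194-63349216, exon) had score 89, 72.7 percentile with vehicle and score 100, 60.3 percentile with cyclosporine A. The second (chr15:63353956-63353988, exon) had score 111, 77.1 percentile with vehicle. With cyclosporine A it was shorter (chr15:63353956-63353975, score 140, 70.0 percentile), and the sequence printed is that of the vehicle list. The *CNN2* cluster lay at chr19:1038516-1038538 (score 57, 59.8 percentile) and the *CYR61* cluster at chr1:86048887-86048906 (score 60, 61.5 percentile). *CYR61* had 2 more clusters in exons, with scores of 77 and 21, and *TPM1* 1 more in an exon, with a score of 39. *TPM2* had 1 exonic cluster (chr9:35685647-35685683, score 79, 69.9 percentile), although its vehicle mRNA libraries held 2 counts.
TPM1, first cluster: acgtagcttctctgaacagacgc
TPM1, second cluster: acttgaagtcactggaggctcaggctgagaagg
CNN2, 3' UTR cluster: aattctgagttgttggggctaag
CYR61, 3' UTR cluster: caagggtgctggtgcggatg

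*ACTA2* had 5 clusters in the vehicle list. The 2 that recurred in the cyclosporine A list were intronic and on the strand opposite to the gene. They lay at chr10:90744797-90744824 and chr10:90744992-90745013 in the vehicle list, so they do not come from *ACTA2* mRNA as annotated. The second shares a run of 15 bases with a cluster annotated to *CTNNA3*, so which gene it comes from is uncertain. The other 3 were exonic and on the gene's strand. Of these, 1 shares a run of 15 bases with a cluster annotated to *ACTB* and 1 with a cluster annotated to *ACTA1*, so which actin gene they come from is uncertain.

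In the miRNA libraries, also taken at 48 h, 11.3% of 470 miRNAs were called by edgeR, 4.89% higher and 6.38% lower with cyclosporine A. These 53 calls became 29 without vehicle replicate 3, 32 with total counts and 92 with a replicate block.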

How the data were processed

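Counts per gene symbol and per mature miRNA are as the authors deposited them, without normalization. The submitters' processing notes name hg19 and, with no role or order, TopHat, Bowtie, HTSeq, cutadapt, DESeq2 and CASAVA 1.8.2; strand use was not stated. The authors' deposited mRNA comparison gives log2 fold changes and adjusted p-values. For the low-count *ACTA2* and *CNN1* its fold changes are smaller than those of DESeq2 here, at similar adjusted p-values. The reason was not tested. The deposited cluster lists give a score per cluster whose unit was not stated.

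The 8 mRNA and the 8 miRNA libraries were each tested with edgeR 4.0.16 (R 4.3.3): filterByExpr with a minimum count of 10, TMM scaling, the quasi-likelihood test with treatment as the only term, and Benjamini-Hochberg adjustment over all features tested. Alternatives were DESeq2 1.42.0, upper quartile scaling, total counts, no low-count filter, a replicate block and each library left out. Within a group no 2 mRNA libraries agreed within sampling noise (chi-square at least 1.265 times its degrees of freedom). miRNA libraries held 6664231 to 9184278 counts. The mRNA test was tested on simulated data of 12735 genes. On the log2 scale, 45 of 50 genes lowered by 1 and 30 of 50 lowered by 0.5 were recovered. Of genes raised by 1 and by 0.5, 48 of 50 and 39 of 50 were recovered. Of 12538 unchanged genes 13 were called. Few genes were changed in the simulation, against 66.9% called in the data. It therefore does not show how scaling acts where most genes change. Cluster overlap and motif searches used pandas 2.3.3 in place of the planned bedtools.

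The 10 genes and all gene lists were chosen with earlier results of these data known. Besides the 10, the named genes are the 2 rises and 2 falls of lowest p-value in each of 4 lists, a set of central regulators, and the tested genes of the members' families. Marker genes and overlapping genes were named after their values were seen. Some results of these lists, of the clusters and of the miRNA seed search are not reported here.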

Additional observations from a re-analysis of the deposited data

Results flagged for a closer look

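In groups of 4 libraries, the highest or lowest library was singled out where its gap to the next exceeded Dixon's 95% critical value. Chance does so in about 5% of groups, and 100 groups were examined. Among the members these were *TPM1* in cyclosporine A replicate 3 (311 CPM, against 265 to 266 CPM in the others of its group), *CYR61* in cyclosporine A replicate 4 (1586 CPM, against 1728 to 1755 CPM in the others of its group) and *ACTA2* in vehicle replicate 2 (2.39 CPM, against 1.42 to 1.58 CPM in the others of its group). *TPM2* had 0.368 CPM in vehicle replicate 2 and 0.823 CPM in cyclosporine A replicate 1, with 0 in the other 6 libraries.

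Among the other genes these were *ELK1* in vehicle replicate 4 (42.9 CPM, against 34.5 to 35.3 CPM in the others of its group), *TGFB2* in vehicle replicate 1 (601 CPM, against 515 to 525 CPM in the others of its group) and *FRMD6* in vehicle replicate 3 (24.1 CPM, against 33.4 to 33.8 CPM in the others of its group). With cyclosporine A they were *RHOB* in replicate 4 (58.3 CPM, against 44.2 to 45.7 CPM in the others of its group) and *LATS2* in replicate 3 (82.4 CPM, against 96.5 to 99.0 CPM in the others of its group).

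A PAR-CLIP list for all Argonaute proteins, for which the labels give no treatment, enters no comparison. It held 1 cluster annotated to a member, at chr10:90744993-90745013 (hg19) in an *ACTA2* intron on the opposite strand, with a score of 206 (88.6 percentile of 19306 clusters).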

How the results depend on the processing

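The members called lower numbered 3 and became 5 with upper quartile scaling, which added *CNN2* and *CYR61*, 5 without a low-count filter, which added *ACTA2* and *CNN1*, 4 in DESeq2, and 2 to 3 with 1 library left out. The member called higher was 1 under every alternative run. Over all genes 8597 were called, with 7907 to 9110 under the alternatives. Of all calls 49.8% were higher, and 42.5% with upper quartile scaling and 45.1% with total counts, which moved the median of all genes to -0.08 and -0.05. The miRNAs called numbered 53, and 32 with total counts, 92 with a replicate block and 29 to 58 with 1 library left out (29 without vehicle replicate 3); the cause was not tested. With a replicate block 3 members were lower and 1 higher, and 8486 genes were called. Same-numbered mRNA libraries had residual correlations of -0.084 to 0.033, so the numbers were not taken to pair them. Same-numbered miRNA libraries had residual correlations of -0.06 to 0.338, and differently numbered ones of -0.283 to 0.179. Whether the numbers pair the miRNA libraries is therefore uncertain, and the main miRNA test did not pair them. Allowing 1 mismatch raised the member windows with a CArG box from 1 to 2. Genes near 0 that changed sign were *TAGLN* (-0.0909 to 0.329 with 1 library left out), *MKL2* (-0.0605 with upper quartile scaling, -0.0334 with total counts, -0.0630 to 0.152 with 1 library left out), *AMOTL2* (-0.0665, -0.0407 and -0.0294 to 0.0392) and *MYL12B* (-0.0498, -0.0241 and -0.0294 to 0.0732), none of them called. Member clusters numbered 11 and 4, with 4 shared, at scores at or above the list median, and 4 were shared at 50% overlap. Low counts limit *ACTA2*, *CNN1*, *TPM2* and *TAGLN*.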

Other observations

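For each tested member, the gene of most similar profile was the one with the highest Pearson's r of log2 CPM over the 8 libraries, among 7984 genes with a mean of at least 20 CPM. The libraries share the treatment contrast, so r is a description with no test. For *TPM1* it was *TENC1* (r = 0.998; from 101 to 32.8 CPM under cyclosporine A), and 978 genes had an r over 0.95. For *CTGF* it was *GABARAPL1* (r = 0.993; from 85.0 to 65.1 CPM under cyclosporine A), with 471 such genes. For *ANKRD1* it was *RC3H1* (r = 0.998; from 40.3 to 76.8 CPM under cyclosporine A), with 1091. For *MYL9* it was *CCDC88A* (r = 0.979; from 74.5 to 63.1 CPM under cyclosporine A), with 5. *CNN2* (C4orf3, r = 0.958), *CYR61* (LMLN, r = 0.966) and *TAGLN* (ERGIC2, r = 0.952) had 1 each.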
